A study of Mus musculus with 12 samples.

Results

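The CC chemokine ligands *Ccl2*, *Ccl3*, *Ccl4*, *Ccl5*, *Ccl6*, *Ccl7*, *Ccl8*, *Ccl12*, *Ccl17*, and *Ccl22* were followed as a group through the cells of spontaneous mouse breast tumors. The 10 genes were listed by name, with earlier results of these data known, and they were 10 of the 31053 genes in the count tables. Each one was described by its transcript level in every cell type and by the share of its transcripts that each cell type held.

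The tumors came from MMTV-PyMT mice, in which the MMTV promoter drives the polyoma middle T oncogene in mammary epithelium. CD11c beads selected macrophages and DCs from late-stage tumors (3 wild-type samples, PyMT-PAR2WT, and 3 PAR2 G37I samples, PyMT-PAR2G37I), and CD4/CD8 beads selected T cells from mid-size tumors (3 and 3 samples). All 12 samples carried the oncogene and had no other treatment, and the PAR2 G37I allele encodes a protease activated receptor 2 that is resistant to signaling by coagulation factor Xa. The mice were female and on a C57BL/6 background, and the cells had been frozen and thawed.

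CC chemokines are small secreted proteins that attract leukocytes through G protein-coupled CC receptors. The monocyte chemoattractants act mainly on CCR2, CCL3, CCL5, and CCL6 on CCR1, and CCL17 and CCL22 on CCR4, which is known from Tregs and other helper T cells. In tumors, macrophages are a known source of many of these ligands and DCs that carry antigen to lymph nodes are known for CCL17 and CCL22.

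The genes lie in a few blocks of the genome. On GRCm38 (GENCODE vM21), *Ccl2* (chr11:82035571-82037453), *Ccl7* (chr11:82045712-82047525), *Ccl12* (chr11:82101845-82103400), and *Ccl8* (chr11:82115185-82116799) lie in this order on the plus strand of chromosome 11. *Ccl5* (chr11:83525778-83530518), *Ccl6* (chr11:83587882-83593087), and *Ccl3* (chr11:83647844-83649355) lie on the minus strand 1409 kb beyond *Ccl8*, with *Ccl4* (chr11:83662584-83664683) on the plus strand next to *Ccl3*. *Ccl22* (chr8:94745590-94751699) and *Ccl17* (chr8:94810453-94812036) lie on the plus strand of chromosome 8, 58.8 kb apart. The principal transcript has 3 exons in each gene except *Ccl6*, which has 4.

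The bases before the start sites are shown for *Ccl12* and *Ccl8* and for *Ccl17* and *Ccl22*, since the genes of each pair lie on 1 chromosome and their levels were highest in the same cells. RefSeq (GRCm38.p6) gave the window from 250 bases before to 50 bases after the start for 6 of the 10 genes, *Ccl3*, *Ccl6*, *Ccl8*, *Ccl12*, *Ccl17*, and *Ccl22*. The RefSeq start of *Ccl22* lies inside the GENCODE span given above. The 250 bases before the start follow, all on the plus strand, with motif matches in capitals (chr11:82101595-82101844, chr11:82114935-82115184, chr8:94810203-94810452, and chr8:94745434-94745683 in the order printed).
Ccl12: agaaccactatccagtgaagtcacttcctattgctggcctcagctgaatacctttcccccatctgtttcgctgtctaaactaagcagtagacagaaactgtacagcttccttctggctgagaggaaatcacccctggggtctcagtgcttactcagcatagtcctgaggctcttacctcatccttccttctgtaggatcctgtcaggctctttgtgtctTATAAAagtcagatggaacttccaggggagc
Ccl8: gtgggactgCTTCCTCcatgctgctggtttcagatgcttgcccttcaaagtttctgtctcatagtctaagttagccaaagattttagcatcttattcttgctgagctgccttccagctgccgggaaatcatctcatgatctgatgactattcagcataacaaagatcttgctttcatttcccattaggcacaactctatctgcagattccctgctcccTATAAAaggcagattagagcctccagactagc
Ccl17: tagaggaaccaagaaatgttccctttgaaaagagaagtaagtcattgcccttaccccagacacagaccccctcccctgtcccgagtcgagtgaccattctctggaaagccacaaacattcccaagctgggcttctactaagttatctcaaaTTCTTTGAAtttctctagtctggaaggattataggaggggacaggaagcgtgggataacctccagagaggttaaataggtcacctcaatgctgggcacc
Ccl22: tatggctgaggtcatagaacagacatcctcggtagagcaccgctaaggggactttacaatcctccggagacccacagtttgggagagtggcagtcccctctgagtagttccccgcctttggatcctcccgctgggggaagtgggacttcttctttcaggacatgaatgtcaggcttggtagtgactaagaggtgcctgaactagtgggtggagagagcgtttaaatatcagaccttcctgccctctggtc
The motifs searched on both strands were the TATA box, whose letters are TATAAA, an NF-kB consensus, TGANTCA (AP-1), TTCNNNGAA (STAT), and GAGGAAG (PU.1). The capitals mark TATAAA 31 bases before the start of *Ccl12* and 32 before that of *Ccl8*, and TTCTTTGAA in *Ccl17*. In *Ccl8* they also mark CTTCCTC, where the PU.1 letters GAGGAAG lie on the reverse strand. Of all 32851 windows of this length, 13.6% held TATAAA, 4.79% the NF-kB consensus, 7.81% the AP-1 letters, 8.30% the STAT letters, and 13.6% the PU.1 letters. The NF-kB and AP-1 motifs had no match in the 6 windows. These matches are descriptions of letters and were not tested as binding sites.

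The barcodes carried no sample name, so each matrix was treated as 1 sample, genotypes were not compared, and no p-value could be given. The matrices held 11639 CD11c-selected cells with a median of 7943 UMIs and 22806 CD4/CD8-selected cells with a median of 4361 UMIs, and 92 barcodes occurred in both (76 and 51 occurred more than once within a matrix). Unique molecular identifiers (UMIs) count each captured molecule once at its 3' end, so levels of different genes were compared without division by length. A level is given in CPM, the UMIs of a gene per 1000000 UMIs of a cell type, with an exact 95% Poisson interval that covers counting error only.

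Cell types were gated on raw UMIs of marker genes, none of them a CC ligand, and 76.7% and 80.9% of the cells entered a gate. Macrophages carried C1q genes and were divided into *Lyve1* macrophages (*Lyve1*, *Cd209f*, *Cd209g*), *Gpnmb* macrophages, and other C1q macrophages. Of the check markers, *Trem2* was at 1470 CPM in *Gpnmb* macrophages, *Fn1* at 3821 in *Retnla* *Ear2* myeloid cells, and *Il4i1* at 708 in migratory DCs (*Fscn1*, *Ccr7*). Gates of 50 or more cells numbered 11 among the CD11c-selected and 9 among the CD4/CD8-selected cells.

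The barcodes of each matrix ran through the alphabet 6 times, and these 6 barcode runs, which were linked to no sample or genotype, gave the only view of spread. A run value was used where the run had 10 or more cells of the gate. Run 4 of the CD11c-selected cells stood apart, with 360 cells at a median of 31161.5 UMIs against 6290 to 9286 in the other runs, and it held 41.3% of the UMIs of the *Lyve1* macrophages. Values without run 4 are given for some of the levels that it moved, and not for *Ccl3*.

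**Figure D1:**
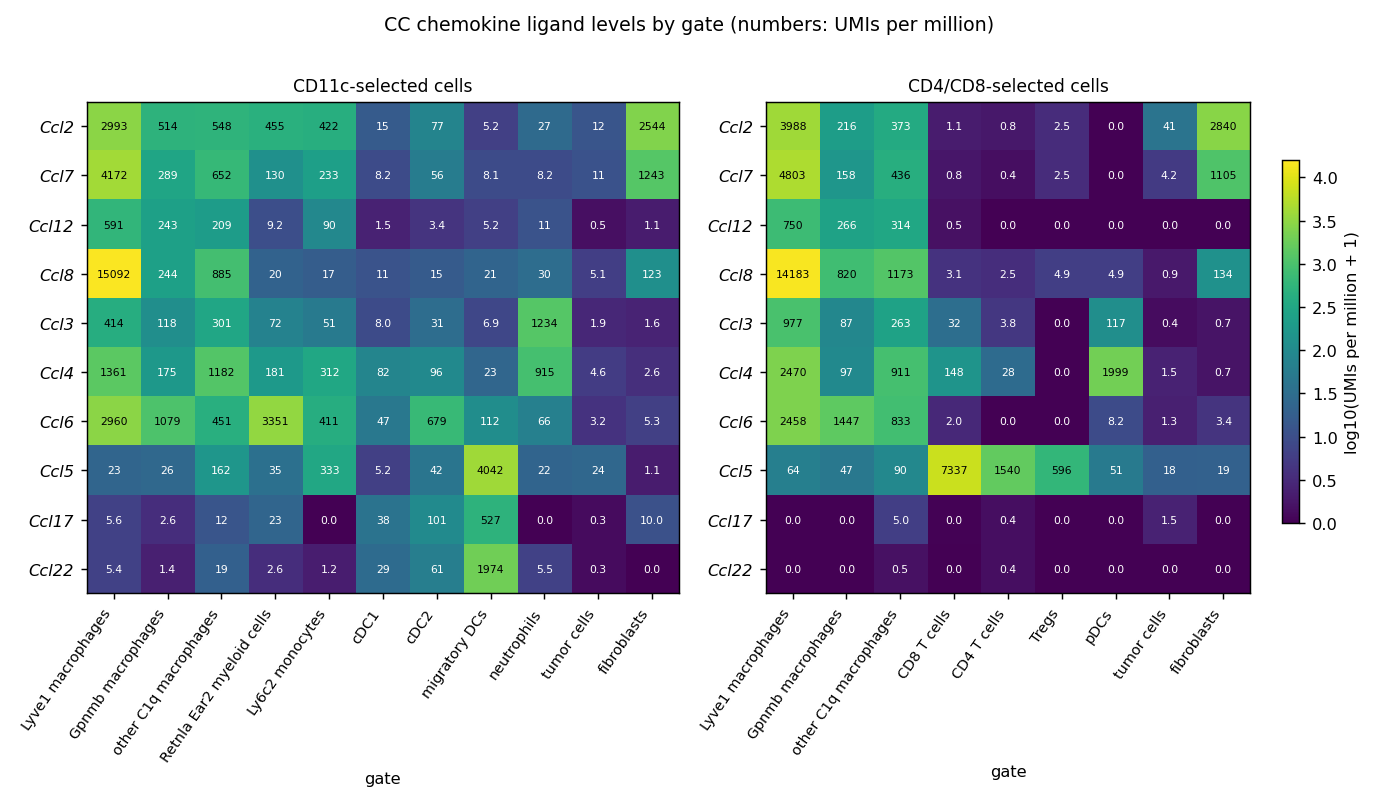
Levels of the 10 CC ligands (rows) in each gate of 50 or more cells (columns), for CD11c-selected cells on the left and CD4/CD8-selected cells on the right. Color is log10(CPM + 1) and the printed numbers are CPM. *Ccl8* in *Lyve1* macrophages is the highest value of either panel (15092 and 14183), and *Ccl5* in CD8 T cells is at 7337.

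The C1q macrophages, *Retnla* *Ear2* myeloid cells, and *Ly6c2* monocytes were counted together as macrophage and monocyte gates. Among CD11c-selected cells, these were highest for 6 of the 10 ligands: 5 in *Lyve1* macrophages and *Ccl6* in *Retnla* *Ear2* myeloid cells. Migratory DCs were highest for *Ccl5*, *Ccl17*, and *Ccl22*, and neutrophils for *Ccl3*. Macrophage and monocyte gates held 87.0% of the 526934 UMIs of all 10 ligands. Of the UMIs of all genes, C1q macrophages held 57.9%, *Retnla* *Ear2* myeloid cells 8.15%, and *Ly6c2* monocytes 0.683%. Shares of ligand UMIs therefore go in part with the size of a gate. Among CD4/CD8-selected cells, where neutrophils, migratory DCs, and *Retnla* *Ear2* cells were under 50 each, 7 ligands were highest in *Lyve1* macrophages and *Ccl5* in CD8 T cells. The share of all genes highest in each gate was not counted in either matrix. These counts are therefore descriptions and are not read as a trait of the ligands. The ligands made up 2.76% of all UMIs of *Lyve1* macrophages, 0.673% of migratory DCs, 0.442% of other C1q macrophages, 0.269% of *Gpnmb* macrophages, and 0.00622% of tumor cells.

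*Ccl2* encodes the main CCR2 ligand that draws monocytes from blood into tissue. Its level was 2993 CPM (95% interval 2945–3041) in *Lyve1* macrophages and 2544 (2473–2617) in fibroblasts, and 548, 514, and 455 in other C1q, *Gpnmb*, and *Retnla* *Ear2* cells. The 6 runs of *Lyve1* macrophages spanned 2267 to 3957 with a median of 3491, and the 4 fibroblast runs 1778 to 4766, so the order of these 2 cell types did not hold beyond the spread between runs. Both stood above every run of the other C1q macrophages (352 to 1119). Without run 4 the level in *Lyve1* macrophages was 3504.

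Only a part of the *Ccl2* transcripts lay in the cells of highest level. Other C1q macrophages, the largest gate, held 45.9% of the 66462 *Ccl2* UMIs, *Lyve1* macrophages 22.5%, and the 114 fibroblasts 7.28%. Of the UMIs of all genes these gates held 45.0%, 4.05%, and 1.54%, so the first share was near the size of its gate. A *Ccl2* UMI was seen in 97.7% of *Lyve1* macrophages and in 5.49% of migratory DCs at a similar median depth (9672 and 9959.5 UMIs). After each cell was thinned to 1000 UMIs these shares were 82.1% and 0.610%.

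*Ccl7* encodes another CCR2 ligand, and its gene is 8.26 kb from *Ccl2*. It followed the same order with a wider gap: 4172 CPM (4116–4229) in *Lyve1* macrophages, 1243 (1193–1294) in fibroblasts, 652 in other C1q macrophages, and 289 in *Gpnmb* macrophages. All 6 runs of *Lyve1* macrophages (3332 to 5524, median 4554) were above all 4 fibroblast runs (664 to 2284). The level without run 4 was 4764. *Lyve1* macrophages held 30.8% of the 67841 *Ccl7* UMIs and other C1q macrophages 53.5%.

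*Ccl12* encodes a mouse CCR2 ligand close to CCL2 in sequence. It was the lowest of the monocyte chemoattractants, at 591 CPM (569–612) in *Lyve1* macrophages, 243 (234–253) in *Gpnmb* macrophages, and 208.5 (205–212) in other C1q macrophages. *Lyve1* runs spanned 335 to 1087 with a median of 660, above all *Gpnmb* runs (125 to 329), while *Gpnmb* and other C1q runs (175 to 232) overlapped. Without run 4 the *Lyve1* level was 771. *Ccl12* differed from *Ccl2* and *Ccl7* in fibroblasts, where 2 UMIs were counted in 114 CD11c-selected cells (1.05 CPM) and 0 in 90 CD4/CD8-selected cells, which allows a level of up to 2.01.

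*Ccl8* encodes a chemokine that in mice acts mainly on CCR8. It had the highest level of the 10 ligands in any CD11c gate, 15092 CPM (14984–15200) in *Lyve1* macrophages, followed by 885 (877–893) in other C1q macrophages, 244 in *Gpnmb* macrophages, and 123 in fibroblasts. *Lyve1* runs spanned 8583 to 20234 with a median of 14054, and other C1q runs 273 to 1752, so the lowest run of the first was above the highest of the second. The 397 *Lyve1* macrophages, with 3.41% of cells and 4.05% of all UMIs, held 57.6% of the 131097 *Ccl8* UMIs. A *Ccl8* UMI was present in 96.5% of them and in 7.93% of migratory DCs, and in 86.1% and 1.22% after thinning. The highest 40 cells held 48.2% of the *Ccl8* UMIs of the gate, and 1 cell held 2358 UMIs.

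*Ccl3* and *Ccl4* encode the macrophage inflammatory proteins 1 alpha and 1 beta, and CCL3 acts on CCR1. *Ccl3* was highest in neutrophils at 1234 CPM (1122–1354), against 414 (397–433) in *Lyve1* macrophages and 301 (296–306) in other C1q macrophages. The 3 neutrophil runs with 10 or more cells gave 915, 1110, and 1312, all above the *Lyve1* runs (261 to 781). The 127 neutrophils held 449 *Ccl3* UMIs, or 1.94%, while other C1q macrophages held 72.2%. A UMI was seen in 59.1% of neutrophils, at a median of 2956 UMIs, and in 4.80% of tumor cells, at a median of 18848. The thinned shares were 45.8% and 0.444%. Of the neutrophils, 51.2% came from 1 run.

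*Ccl4* showed no single gate above the rest. It was at 1361 CPM (1329–1394) in *Lyve1* macrophages, 1182 (1173–1191) in other C1q macrophages, and 915 (820–1019) in neutrophils, and the runs of these gates (590 to 2878, 606 to 1430, and 415 to 1648) overlapped. The *Lyve1* run of lowest level was run 4, and without it the level was 1905. With doubled marker thresholds, other C1q macrophages became the highest gate. Other C1q macrophages held 79.2% of the 83052 *Ccl4* UMIs.

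*Ccl6* encodes a rodent CCR1 ligand that myeloid cells are known to make. It was highest in *Retnla* *Ear2* myeloid cells at 3351 CPM (3315–3387), with runs from 3220 to 3513 and a median of 3329, the narrowest relative range of any ligand in its highest gate. *Lyve1* macrophages followed at 2960 (2912–3008; runs 2201 to 3668) and overlapped it between runs. *Gpnmb* macrophages stood at 1079 and cDC2 at 679. *Retnla* *Ear2* cells held 32.8% of the 102873 *Ccl6* UMIs, and a UMI was found in all 486 of them against 7.42% of tumor cells at a similar median depth (18127 and 18848 UMIs). The shares were 95.3% and 0 of the tumor cells after thinning, the latter allowing up to 1.33%. *Ccl6* made up 78.3% of the UMIs of the 10 ligands in *Retnla* *Ear2* cells and 58.5% in cDC2.

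**Figure D2:**
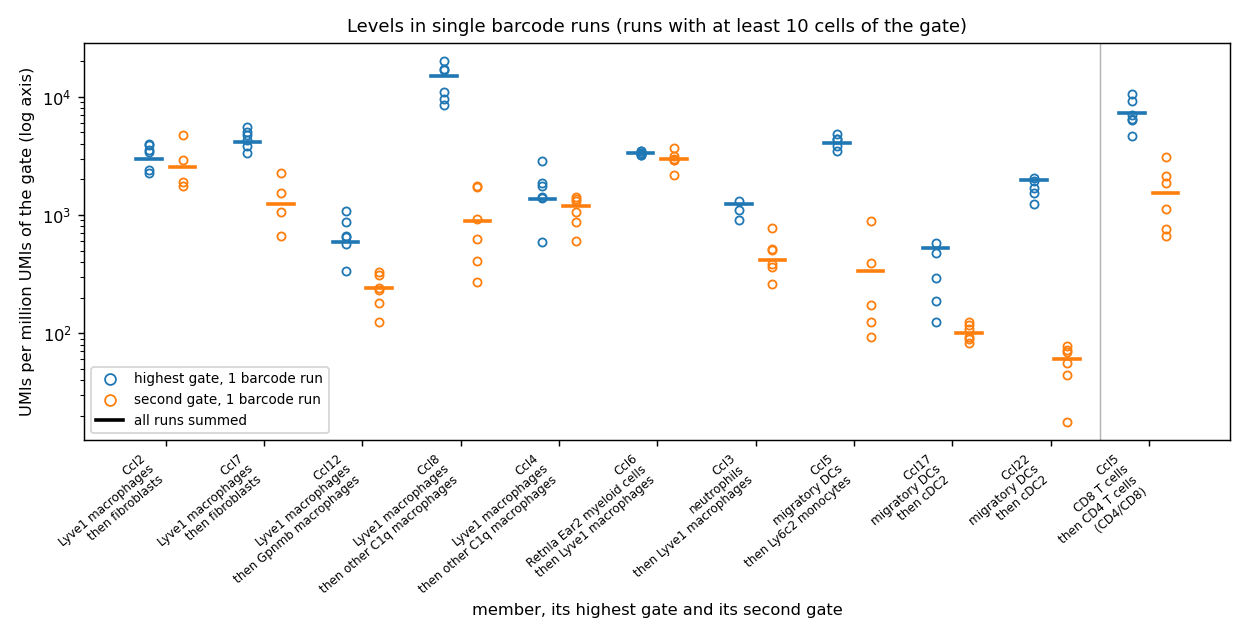
Levels (log axis, CPM) of each ligand in its highest gate (blue) and second gate (orange). Open circles are barcode runs with 10 or more cells and bars are all runs summed. Blue and orange circles are apart for *Ccl7*, *Ccl12*, *Ccl8*, *Ccl3*, *Ccl5*, *Ccl17*, and *Ccl22* and overlap for *Ccl2*, *Ccl4*, and *Ccl6* in CD11c-selected cells.

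*Ccl5* encodes a ligand of CCR1 and CCR3 that effector T cells are known for. Among CD11c-selected cells its level in migratory DCs was 4042 CPM (3948–4138), and 5 runs gave 3456, 3843, 4394, 4409, and 4845. *Ly6c2* monocytes were next at 333 (295–374; runs 92.4 to 885) and other C1q macrophages at 162, and cDC1 were at 5.21. All 5 migratory DC runs were above every monocyte run. The 3 migratory DCs of run 4 gave 220.

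A *Ccl5* UMI was found in 85.4% of the 164 migratory DCs and in 5.24% of tumor cells, at medians of 9959.5 and 18848 UMIs, and in 66.5% and 1.33% after thinning. These DCs held 30.4% of the *Ccl5* UMIs of CD11c-selected cells and other C1q macrophages 39.3%. T cells and NK cells that came through the CD11c beads were few, with 4028 CPM in 25 CD8 T cells, 3476 in 21 NK cells, and 3241 in 12 gamma delta T cells. Cells with a T cell marker and another lineage's markers entered no gate.

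Among CD4/CD8-selected cells *Ccl5* was at 7337 CPM (7320–7355) in CD8 T cells, 1540 (1491–1591) in CD4 T cells, and 596 (523–676) in Tregs. The 6 CD8 runs spanned 4629 to 10517 with a median of 6805, all above the 6 CD4 runs (666.5 to 3105, median 1488), while CD4 runs and the 3 Treg runs (508 to 789) overlapped. The 13 gamma delta T cells held 544 UMIs, or 8195 CPM (7521–8913). CD8 T cells were 71.9% of cells with 67.2% of all UMIs, and they held 92.5% of the 725138 *Ccl5* UMIs.

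*Ccl5* UMIs were also seen in tumor cells and fibroblasts. A UMI was present in 94.1% of CD8 T cells and in 37.1% of tumor cells, whose median depths were 4664 and 21273 UMIs, and thinning left 86.0% and 2.14%. The level was 18.1 CPM in tumor cells and 19.5 in fibroblasts, against 90.2 in other C1q macrophages. In the CD11c-selected cells, where T cells were few, other C1q macrophages were at 162, tumor cells at 24.0, and fibroblasts at 1.05. The highest cell held 66 of the 152 *Ccl5* UMIs of CD11c-selected tumor cells and 5 of the 135 of CD4/CD8-selected tumor cells. The source of these UMIs was not tested.

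*Ccl17* and *Ccl22* encode the CCR4 ligands. *Ccl22* was at 1974 CPM (1908–2041) in migratory DCs, 60.7 (55.3–66.6) in cDC2, 28.9 in cDC1, and 18.6 in other C1q macrophages, and the 5 migratory DC runs (1248, 1525, 1709, 1932, and 2066) were all above every cDC2 run (17.7 to 77.8). *Ccl17* was at 527 (493–562) in migratory DCs, 101 (94.0–109) in cDC2, and 38.3 in cDC1, with migratory DC runs of 125, 188, 294, 477, and 583. The lowest of these was only slightly above the highest cDC2 run of 123.

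The 3 migratory DCs of run 4 had 3954 CPM of *Ccl17* and 6907 of *Ccl22*, above all other runs. Without run 4, *Ccl17* was at 356 and *Ccl22* at 1728 in migratory DCs, still above the other gates. The highest 17 cells held 82.1% of the *Ccl17* UMIs of the gate against 59.2% for *Ccl22*, and 1 cell held 207 of the 910 *Ccl17* UMIs. *Ccl17* thus rested on fewer cells.

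A *Ccl22* UMI was found in 81.1% of migratory DCs and a *Ccl17* UMI in 34.1%, each against 0.873% of tumor cells. Thinning left 51.2% and 14.0% in migratory DCs and 0 in tumor cells, which allows up to 1.33%. Migratory DCs held 46.4% of *Ccl22* UMIs but 23.4% of *Ccl17* UMIs, and cDC2 held 19.4% of the latter. Cells in no gate held 16.9% of *Ccl22* and 15.6% of *Ccl17* UMIs.

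Few of these DCs were among the CD4/CD8-selected cells. There 4 migratory DCs held 132 of the 186 *Ccl22* UMIs (2459 CPM) and 38 of the 105 *Ccl17* UMIs (708 CPM). Of the gates of 50 or more cells, other C1q macrophages were highest with 37 *Ccl17* UMIs, all in 1 cell, and 4 *Ccl22* UMIs, too few for an order of cell types. No *Ccl22* UMI was seen in 16402 CD8 T cells, which allows a level of up to 0.0328 CPM.

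**Figure D3:**
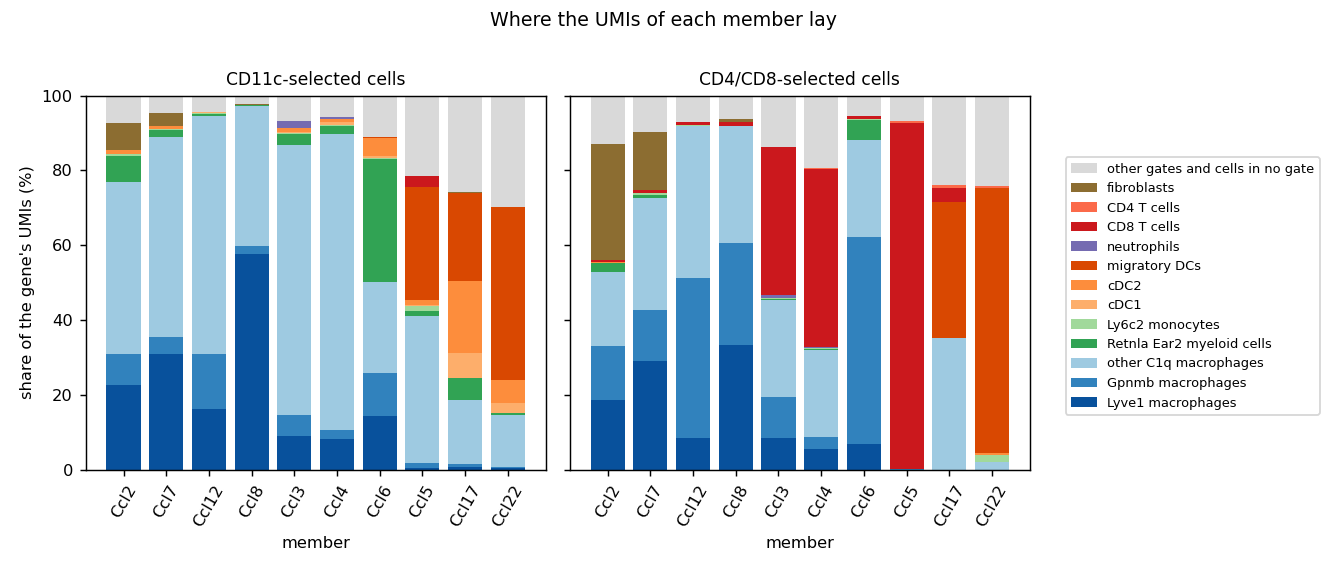
Share (%) of the UMIs of each ligand held by each gate, stacked to 100%, in CD11c-selected (left) and CD4/CD8-selected cells (right). Grey is all other gates and cells in no gate. Macrophage and monocyte gates hold 83.4% or more of each of the 7 ligands from *Ccl2* to *Ccl6* in plotted order on the left, while CD8 T cells hold 92.5% of *Ccl5*, 47.6% of *Ccl4*, and 39.3% of *Ccl3* on the right. Of the UMIs of all genes, C1q macrophages hold 57.9% on the left and CD8 T cells 67.2% on the right.

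In the CD4/CD8-selected cells the 68 *Lyve1* macrophages had *Ccl8* at 14183 CPM (13894–14477), *Ccl7* at 4803, *Ccl2* at 3988, and *Ccl12* at 750. Their runs overlapped those of the CD11c-selected *Lyve1* macrophages for each of these genes. Fibroblasts were again second for *Ccl2* (2840) and *Ccl7* (1105). Macrophage and monocyte gates held 55.4% of *Ccl2*, 74.1% of *Ccl7*, 92.0% of *Ccl12*, and 92.0% of *Ccl8* UMIs. In this matrix C1q macrophages were 4.17% of cells and held 12.5% of all UMIs. *Retnla* *Ear2* cells and *Ly6c2* monocytes held 0.245% and 0.137% of all UMIs.

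*Ccl3* and *Ccl4* lay in CD8 T cells to a larger share than *Ccl2*, *Ccl7*, *Ccl12*, and *Ccl8*. The share was still below that of all genes, of whose UMIs CD8 T cells held 67.2%. CD8 T cells held 39.3% of the 7364 *Ccl3* UMIs and 47.6% of the 28473 *Ccl4* UMIs, at levels of 31.7 (30.5–32.9) and 148 (146–151) CPM, below *Lyve1* macrophages at 977 and 2470. The 67 pDCs, which make type I interferon, had *Ccl4* at 1999 (1889–2115), with runs of 323, 570.5, 2286, and 4802 and 7 cells holding 63.7% of the UMIs. Neutrophils numbered 2.

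UMIs of macrophage genes were rare in CD8 T cells. The CD8 level of *Apoe* was 0.231% of the C1q macrophage level and that of *Lyz2* 0.212%, and *Ccl2* (0.262%), *Ccl7* (0.179%), *Ccl12* (0.172%), *Ccl8* (0.211%), and *Ccl6* (0.168%) were close to these. Their UMIs in CD8 T cells were read as background for this reason. *Ccl3* at 16.1% and *Ccl4* at 27.6% were above these values. Another reference, *Ctsd*, was at 3.23% and was also present in tumor cells at 831 CPM.

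Within CD8 T cells, *Ccl5*, *Ccl4*, and *Ccl3* were compared between cells with *Pdcd1* and *Havcr2* but no *Tcf7* UMI, as in terminally exhausted cells, and cells with *Pdcd1* and *Tcf7* but no *Havcr2* UMI, as in progenitor exhausted cells. *Ccl5* was at 11604 CPM in the former (485 cells) and 5354 in the latter (1757 cells). *Ccl4* was at 390 and 102 and *Ccl3* at 161 and 11.02. Runs of *Ccl5* spanned 8323 to 18960 and 3943 to 7349 and did not overlap.

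Runs of *Ccl4* (145 to 663 and 41.8 to 202) and of *Ccl3* (5.25 to 364 and 2.53 to 19.3) did overlap. In *Havcr2* cells 96.2% of the *Ccl3* UMIs lay in the highest 49 cells, and 1 cell held 111 of 503. A *Ccl3* UMI was found in 14.0% of *Havcr2* cells, 4.27% of *Tcf7* cells, and 1.27% of tumor cells (medians 5058, 5762, and 21273 UMIs), and in 5.17%, 1.03%, and 0.427% after thinning.

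**Figure D4:**
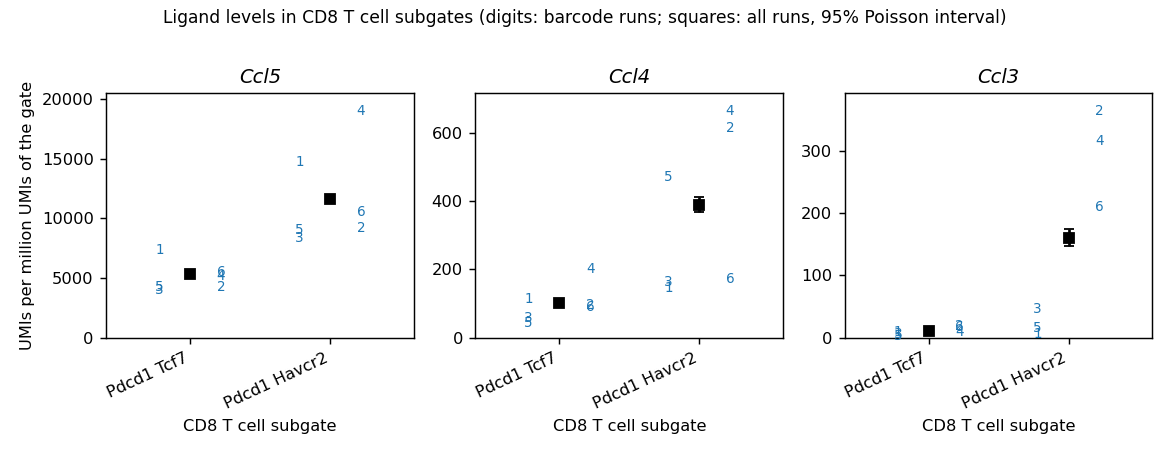
Levels (CPM, linear axes from 0) of *Ccl5*, *Ccl4*, and *Ccl3* in 2 subgates of CD8 T cells. Squares with bars are all runs with the 95% Poisson interval and digits are the 6 barcode runs. The subgate with *Pdcd1* and *Havcr2* has the higher square in each panel, and its runs stay above the other subgate's for *Ccl5* only.

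A fold of 2 or more between a pair of gates was used as a call with no test, among genes with at least 100 UMIs in both gates together. Between the *Pdcd1* *Havcr2* and *Pdcd1* *Tcf7* CD8 T cells 3 ligands had enough UMIs and all 3 were called higher, against 1.52% of the 7906 genes compared (1.63% lower and 3.15% in either direction). The folds were 14.6 (12.1–17.7) for *Ccl3*, 3.83 (3.53–4.14) for *Ccl4*, and 2.17 (2.14–2.20) for *Ccl5*. Their median was 1.94 on the log2 scale beside 0.13 for all genes. Without run 4 the fold of *Ccl5* was 1.89 and it was no longer called, and with cells of 2 lineages kept in both gates 5 ligands were called.

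*Lyve1* macrophages exceeded *Gpnmb* macrophages for 7 of the 8 ligands compared, and 0 were lower, against 10.3% higher and 9.16% lower among 8360 genes (19.5% in either direction). The fold was 61.8 (59.4–64.2) for *Ccl8*, 14.4 (13.9–14.98) for *Ccl7*, 7.79 for *Ccl4*, 5.83 for *Ccl2*, 3.52 for *Ccl3*, 2.74 for *Ccl6*, and 2.43 for *Ccl12*. Runs of the 2 gates overlapped for *Ccl6* (2201 to 3668 and 340 to 3243) and were apart for the other ligands called. *Ccl5* was low in both, with a fold of 0.892 (0.711–1.11). The median of the 8 was 2.18 on the log2 scale beside -0.01 for all genes, and the count was 7 without run 4 as well.

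Migratory DCs were compared with cDC2, the conventional DCs that carried *Cd209a* and *Flt3*. Of 9 ligands, 3 were higher (10.8% of 6450 genes) and 5 were lower (20.5%, and 31.3% in either direction). *Ccl5* was 97.3-fold (86.8–109), *Ccl22* 32.5-fold (29.4–35.9), and *Ccl17* 5.21-fold (4.73–5.75) higher in migratory DCs. *Ccl2* was 14.8-fold, *Ccl7* 6.95-fold, *Ccl6* 6.05-fold, *Ccl3* 4.47-fold, and *Ccl4* 4.17-fold higher in cDC2. *Ccl2*, *Ccl7*, *Ccl3*, and *Ccl4* had 9, 14, 12, and 40 UMIs in migratory DCs and passed the minimum only through cDC2, so the count of 5 is not read against the share of all genes. *Ccl8* was at 1.40 times the cDC2 level (0.938–2.04). Without run 4 the fold was 3.49 for *Ccl17* and 26.1 for *Ccl22*.

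C1q macrophages of both matrices were also compared, although tumor stage and bead selection differed between them and cannot be told apart. Of 10 ligands, 0 were higher and 2 were lower in the CD4/CD8-selected cells, against 2.91% and 6.72% of 11030 genes (9.63% in either direction). *Ccl22* was 64.1-fold and *Ccl17* 4.64-fold lower there, on 4 and 37 UMIs. Both passed the minimum only through the CD11c-selected cells, where they were higher, so the count of 2 is not read against the share of all genes. *Ccl5* (1.98-fold), *Ccl4* (1.94-fold), *Ccl7* (1.86-fold), *Ccl2* (1.68-fold), *Ccl3* (1.43-fold), and *Ccl8* (1.21-fold) were lower and *Ccl6* (1.69-fold) and *Ccl12* (1.27-fold) higher without reaching 2-fold. Barcode runs were left out by number from both matrices at once, although runs of the same number are not linked. The count then moved between 1 and 6, and without run 3 of each matrix the fold of *Ccl17* was 1.46 and not called. *Gpnmb* macrophages were 331 of 950 C1q macrophages there and 439 of 6658 among CD11c-selected cells, and 87.9% of the 331 came from 1 run, and the part of this in the folds was not tested.

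Some ligands were found in the same cells. In *Lyve1* macrophages *Ccl2* and *Ccl7* correlated across the 397 cells with r = 0.72, and in other C1q macrophages with r = 0.78. The 114 CD11c-selected and 90 CD4/CD8-selected fibroblasts gave r = 0.62 and 0.65. *Ccl3* and *Ccl4* had r = 0.68 in 5822 other C1q macrophages, *Ccl7* and *Ccl8* 0.62 there but 0.15 in *Lyve1* macrophages, and *Ccl17* and *Ccl22* 0.57 in migratory DCs. The values are on log counts scaled by cell depth, and cells of a matrix share library and depth, so they are descriptions.

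Across the 20 gates of 50 or more cells, each ligand was set beside 11020 genes by Pearson r of log2(CPM + 1). *Ccl7* was the nearest gene to *Ccl2* (r = 0.97), followed by *Pnp* (0.93). *Ccl12* was nearest to *Ms4a7* (0.98), *C3ar1* (0.97), and *Cd93* (0.96), and *Ccl8* to *Npl* (0.95), *Hpgd* (0.94), and *Slco2b1* (0.93). *Ccl6* was nearest to the lysozyme gene *Lyz2* and the CC ligand *Ccl9* (both 0.97) and *Fcgr2b* (0.96). *Ccl3* and *Ccl4* were near each other (0.95), with *Tmem189* and *Lyl1* (both 0.93) near the first and *Dclre1c* (0.95) and *Mknk1* (0.93) near the second.

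The other ligands had looser or DC-linked neighbors. *Ccl22* was nearest to *Il12b* (0.92), the p40 subunit of interleukin 12, *H2-Eb2* (0.91), and *Strip2* (0.90). *Ccl17* was nearest to *Gfpt1* (0.87), *Ccl22* (0.87), and *Il12b* (0.85). *Ccl5* had lower values, with *Gbp4* and *Sugt1* at 0.86 and the T cell kinase gene *Txk* at 0.85. The gates share libraries and differ in depth, and the values are descriptions.

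The CC receptors and atypical receptors were also listed by name, with earlier results of these data known. *Ccr1*, whose ligands include CCL3, CCL5, and CCL6, was at 1275 CPM (1162–1397) in neutrophils and 348 in *Lyve1* macrophages. *Ccr2*, the receptor of CCL2, CCL7, and CCL12, was at 671 (655–687) in *Retnla* *Ear2* myeloid cells, 442 in *Ly6c2* monocytes, 251 in *Lyve1* macrophages, and 25.9 in *Gpnmb* macrophages.

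Receptors known from Tregs had low levels. *Ccr4*, which binds CCL17 and CCL22, was at 49.3 (30.1–76.1; 20 UMIs) in 69 Tregs and 21.9 in CD4 T cells, and *Ccr8*, the receptor of mouse CCL8, at 19.7 (8.51–38.8) and 10.51. The CCL20 receptor *Ccr6* was at 54.2 in Tregs. *Ccr9*, which binds CCL25, was at 1914 in pDCs. *Ccr7* marked migratory DCs and is not a finding there. *Ackr2*, which clears inflammatory CC ligands, was at 6.84 and 7.38 in fibroblasts, and *Ackr1* at 24.2 and 20.1. *Ccr3*, *Ccr10*, and *Ackr4* were at 4.93 or less in every gate of 50 or more cells.

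**Figure D5:**
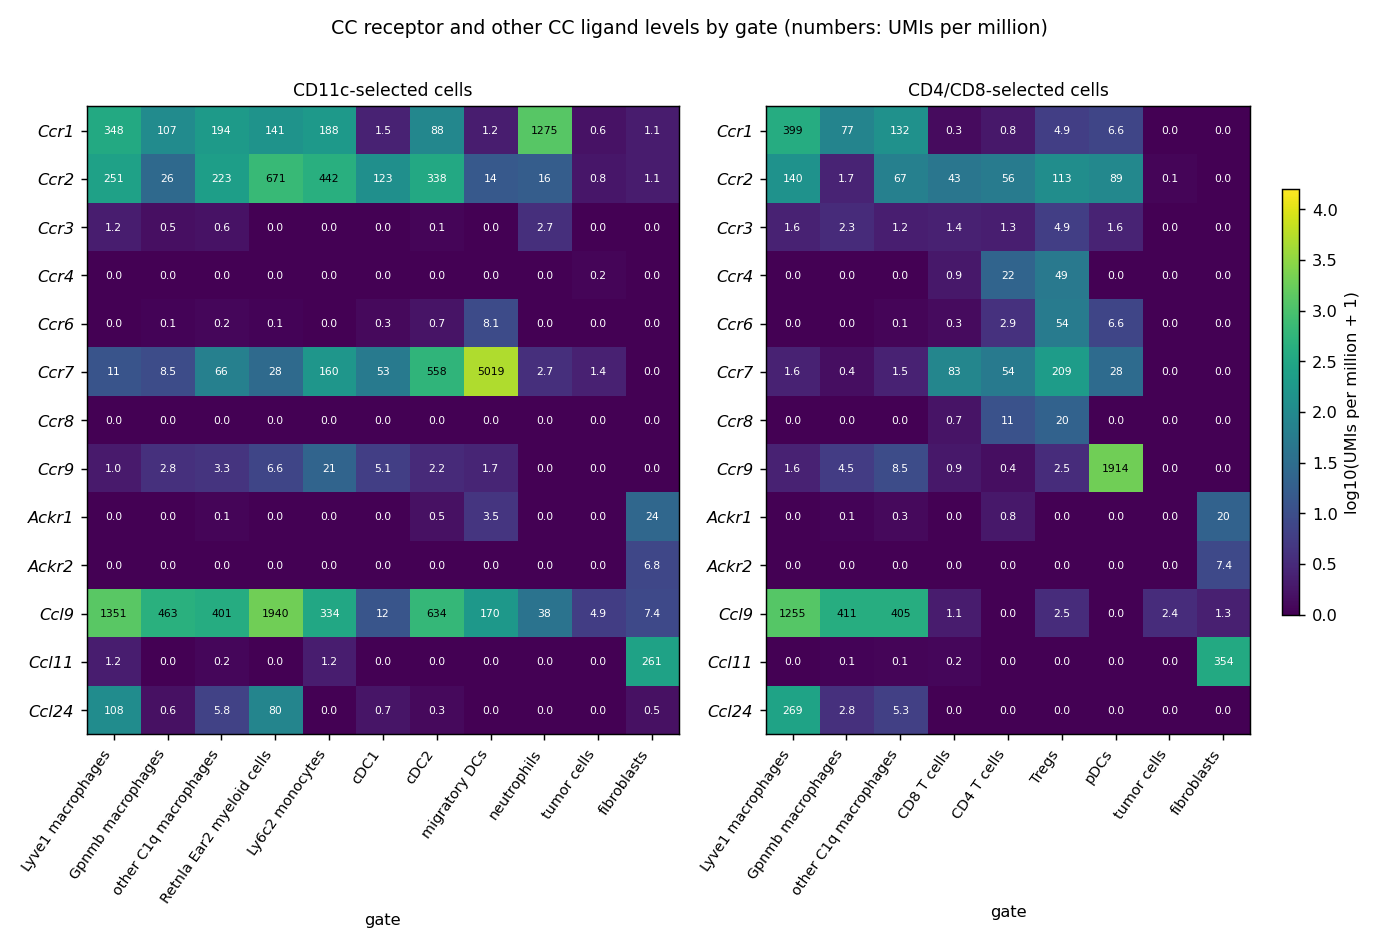
Levels of CC receptors, atypical receptors, and 3 further CC ligands (rows) in each gate of 50 or more cells (columns), with color as log10(CPM + 1) and numbers as CPM. Among CD11c-selected cells *Ccr1* is highest in neutrophils (1275) and *Ccr2* in *Retnla* *Ear2* cells (671), and among CD4/CD8-selected cells *Ccr4* and *Ccr8* in Tregs (49.3 and 19.7).

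Of 8 further CC ligands with rows of their own, *Ccl9*, *Ccl11*, and *Ccl24* exceeded 100 CPM in a gate. *Ccl9*, a relative of *Ccl6*, was at 1940 (1912–1967) in *Retnla* *Ear2* cells and 1351 in *Lyve1* macrophages. *Ccl11*, which draws eosinophils through CCR3, was at 261 and 353.8 in fibroblasts of the 2 matrices and at 1.20 or less in every other gate of 50 or more cells. *Ccl24*, with the same receptor, was at 108 and 269 in *Lyve1* macrophages and 80.2 in *Retnla* *Ear2* cells. *Ccl1* was at 31.5 in CD4 T cells. The rows of *Ccl19*, *Ccl21*, *Ccl26*, and *Ccl27* genes with near-identical copies held 616 and 218 UMIs, which cannot be divided among the copies.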

How the data were processed

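The authors deposited 2 gene-by-barcode matrices of UMI counts, 1 for CD11c-selected and 1 for CD4/CD8-selected cells. Per the submitters' processing notes, the tools included Cell Ranger 3.0.2 and the build mm10. The counts were used as deposited in Python 3.11.15 with numpy 2.4.6, scipy 1.17.1, pandas 2.3.3, and matplotlib 3.10.9.

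Barcodes under 200 detected genes (341 and 295) were dropped. The matrices held 123642015 and 135965765 UMIs. Gates used minimum UMIs of marker genes (C1q genes 10, *Lyve1* with *Cd209f* and *Cd209g* 3, *Gpnmb* 5, *Retnla* 5, *Ear2* 2, *Fscn1* 3, *Ccr7* 3, *S100a8* and *S100a9* 3 each, CD3 genes 3, keratins with *Epcam* 15, collagens with *Dcn* 15), set after the marker distributions were seen. No doublet caller was run, and 74 and 164 cells with markers of 2 lineages entered no gate. The barcodes did not tie cells to samples, so the planned genotype test was not run.

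Levels were UMIs summed over a gate in CPM, with exact 95% Poisson intervals. A 0 was given a limit of 3 counts. Shares of cells with a UMI were repeated after thinning to 1000 UMIs. Folds of 2 or more were called among genes with at least 100 UMIs, without a test. Tested on simulated data, 100% of 200 genes changed 4-fold were called in the right direction in each of the 4 comparisons, and 94.55% of 2000 Poisson intervals held the true level. The changed genes were drawn from genes with at least 1000 UMIs, and Poisson noise alone was simulated. The check therefore does not cover genes near 100 UMIs or the spread between runs. Named genes were the 10 ligands, the CC receptors, the other CC ligands, and, for each ligand, the 3 genes of highest Pearson r with at least 500 UMIs. The ligands and lists were chosen with earlier results of these data known. Marker thresholds, cell filters, cells of 2 lineages, the averaging of cells, and single barcode runs were varied. Some items are not reported here.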

Additional observations from a re-analysis of the deposited data

How the results depend on the processing

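The count of 6 ligands highest in a macrophage or monocyte gate of the CD11c-selected cells was the same under every alternative run. It has no share over all genes beside it. The share of all ligand UMIs in macrophage and monocyte gates of these cells (87.0%) and the share of *Ccl5* UMIs in the CD8 gate (92.5%) were 84.4% and 83.6% with all marker thresholds doubled, 87.1946% and 93.2% with thresholds halved, 89.2% and 92.8281% with cells of 2 lineages kept in both gates, and 79.7% and 88.5% as means over cells. They were 87.2495% and 92.8019% with a minimum of 500 genes, 86.4% and 92.1838% without the 5% of cells with most UMIs, and 85.4% and 92.231% without the 1% of cells with most UMIs of the ligand. The *Ccl5* share was 92.9% without cells over 10% mitochondrial UMIs. Leaving out a barcode run gave 85.9% to 87.5% and 91.9% to 94.96%, and 1 to 2 ligands highest in a T cell gate, the added one being *Ccl22* in CD4 T cells without run 1 or run 2.

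The count of ligands 2-fold apart was 7 between *Lyve1* and *Gpnmb* macrophages under every alternative. It was 5 between the CD8 subgates with cells of 2 lineages kept, which added *Ccl7* and *Ccl6*. Between C1q macrophages of the 2 matrices it was 4 without cells over 10% mitochondrial UMIs, which added *Ccl4* and *Ccl5*. There it was 1 to 6 when the run of the same number was left out of both matrices. The causes were not tested. Of 80 levels of ligands in their highest gate among CD11c-selected cells, all 80 stayed within 1.5 times under the alternatives other than leaving out a run, and the highest gate was the same in 79, the exception being *Ccl4* with doubled thresholds (1143 CPM in *Lyve1* macrophages). Of 80 among CD4/CD8-selected cells, 77 did, and the exceptions were *Ccl17* and *Ccl22*, with 105 and 186 UMIs in all.

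No paired analysis was possible because the barcodes did not tie cells to samples. For the same reason the replicate block, the DESeq2 size factors, and the unfiltered fit planned for genotypes were not run. Intervals cover counting error only, and the spread between mice is unknown.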
